A study of Mus musculus with 6 samples.

Results

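The CC chemokine ligands are small secreted proteins that carry a pair of adjacent cysteines near the N-terminus and attract leukocytes through G protein-coupled receptors of the CCR family. In the injured heart they are known for the recruitment of monocytes through CCR2 and of macrophages and T cells through other receptors such as CCR1, and macrophages, fibroblasts and endothelial cells can make them. Many of their genes are switched on by NF-κB and by interferon signaling. Described here are 10 ligands of this family (Ccl2, Ccl3, Ccl4, Ccl5, Ccl6, Ccl7, Ccl8, Ccl9, Ccl12 and Ccl22), taken by gene name from the 57010 gene rows of the deposited count table, and all 10 had enough counts to be tested.

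The table holds 6 RNA-seq libraries of primary neonatal mouse cardiomyocytes (NMCMs), isolated from C57BL/6 mice of 1 to 3 days of age and enriched by letting the faster-adhering fibroblasts settle out. All 6 libraries are from cells kept under hypoxia (HO), 3 with vehicle (HO + Vehicle, libraries V1 to V3) and 3 with the plant sterol β-sitosterol (HO + β-SITO, libraries T4 to T6), and normoxic cells were not analysed here. How much β-SITO these cells received, and how long they were hypoxic, is not given in the sources used here, and neither is it stated whether replicates were separate cultures, so p-values measure the spread between these libraries. The comparison asks which transcripts differ between hypoxic cells with and without β-SITO.

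Library totals ran from 16694734 to 18460522 counts, and expression is given as CPM, the count per 1000000 counts of a TMM-scaled library. Of 14799 genes tested with edgeR's quasi-likelihood test, 10.1% were called lower and 12.8% higher in the HO + β-SITO group (over 2-fold at an adjusted p below 0.05). The cultures held more than cardiomyocytes. The summed level of 8 fibroblast markers was 29833 to 31113 CPM with vehicle and 44413 to 45501 CPM with β-SITO, against 4162 to 4945 CPM and 4144 to 6977 CPM for 10 cardiomyocyte markers, none of which was at 0. Most of the fibroblast sum came from the collagen genes Col1a1, Col1a2 and Col3a1, which had higher means with β-SITO. Among the other fibroblast markers, Dcn (1910 against 1330 CPM) and Postn (1150 against 990 CPM) had lower means, and Pdgfra, Lum and Tcf21 higher ones. Library T4 stood apart from T5 (6939 CPM) and T6 (6977 CPM) with the lowest cardiomyocyte sum of its group. The library names of the HO + β-SITO group carry a suffix that the others lack, so the treatment cannot be told apart from any separate preparation.

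RefSeq promoter sequences (GRCm38.p6) were matched for 6 of the 10 ligands, and Ccl2, Ccl4, Ccl5 and Ccl7 were not matched. The 250 bases before the start of 4 of them are shown, a selection from the chromosome 11 blocks described below. These genes moved to different extents, Ccl9 and Ccl6 being neighbours with opposite signs. The promoter of Ccl12, which also lies in these blocks, is not shown. Capitals mark matches, on either strand, to the NF-κB consensus or to TGANTCA (AP-1).
Ccl9 (chr11:83578637-83578886, minus strand): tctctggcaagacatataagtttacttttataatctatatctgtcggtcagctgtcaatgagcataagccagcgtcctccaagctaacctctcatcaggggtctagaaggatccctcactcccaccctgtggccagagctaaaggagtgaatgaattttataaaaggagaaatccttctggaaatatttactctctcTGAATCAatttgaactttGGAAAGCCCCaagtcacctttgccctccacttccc
Ccl6 (chr11:83593088-83593337, minus strand): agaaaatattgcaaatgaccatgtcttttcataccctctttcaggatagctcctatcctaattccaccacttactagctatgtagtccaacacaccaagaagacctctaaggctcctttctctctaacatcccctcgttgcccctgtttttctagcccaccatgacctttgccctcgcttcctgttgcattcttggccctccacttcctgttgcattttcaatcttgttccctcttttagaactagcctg
Ccl3 (chr11:83649379-83649628, minus strand): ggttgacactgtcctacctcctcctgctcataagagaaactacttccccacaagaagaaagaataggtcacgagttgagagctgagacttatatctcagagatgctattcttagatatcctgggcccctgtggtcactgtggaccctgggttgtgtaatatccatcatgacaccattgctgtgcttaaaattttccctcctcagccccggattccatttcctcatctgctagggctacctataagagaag
Ccl8 (chr11:82114935-82115184, plus strand): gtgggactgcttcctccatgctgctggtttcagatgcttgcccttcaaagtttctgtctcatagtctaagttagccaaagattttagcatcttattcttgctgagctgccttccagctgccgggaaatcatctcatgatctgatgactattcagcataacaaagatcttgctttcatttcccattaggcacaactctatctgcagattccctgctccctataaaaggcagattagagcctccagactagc
Of the 6 promoters, 1 held an NF-κB match, that of Ccl9, beginning 35 bases before the start, and the same promoter held the only AP-1 match, beginning 53 bases before the start. The 2 matches do not overlap. No match was found in any of the 6 to GAAA followed after any 2 bases by GAAA (ISRE), TTCNNNGAA (GAS) or TTGCNNAA (C/EBP). Of 32841 promoter windows of the same length, 7.25% held the NF-κB consensus, 6.75% the AP-1 letters, 2.98% the ISRE, 7.02% the GAS and 9.57% the C/EBP letters. A missing match says only that these letters are not in this window.

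The 10 ligands together fell steeply. They summed to 5360, 6430 and 6130 CPM in V1, V2 and V3 and to 175, 141 and 141 CPM in T4, T5 and T6, and the groups did not overlap. Their share of all counts was 0.508% to 0.615% with vehicle and 0.0148% to 0.0185% with β-SITO. The mean sum was 5975 ± 552 CPM against 152.4 ± 19.7 CPM (SD, n = 3), 39.2-fold lower (p = 0.1 by a two-sided exact permutation test, which cannot go lower with 3 libraries a group). Of the 10 ligands, 9 were called lower, where 10.1% of all tested genes were, and none was called higher. The same 9 showed no overlap between groups in the lower direction, as did 35.8% of all tested genes. Among the 9, Ccl5, Ccl8 and Ccl22 had enough counts to be tested only through the HO + Vehicle group. The 10 ligands were also chosen with earlier results of these data known, so these counts describe them and do not test the family. The median log2 fold change of the 10 was -5.16, against -0.01 over all genes tested. The size of the decrease differed widely among members, from 4.44-fold for Ccl9 to 4580-fold for Ccl5.

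**Figure D1:**
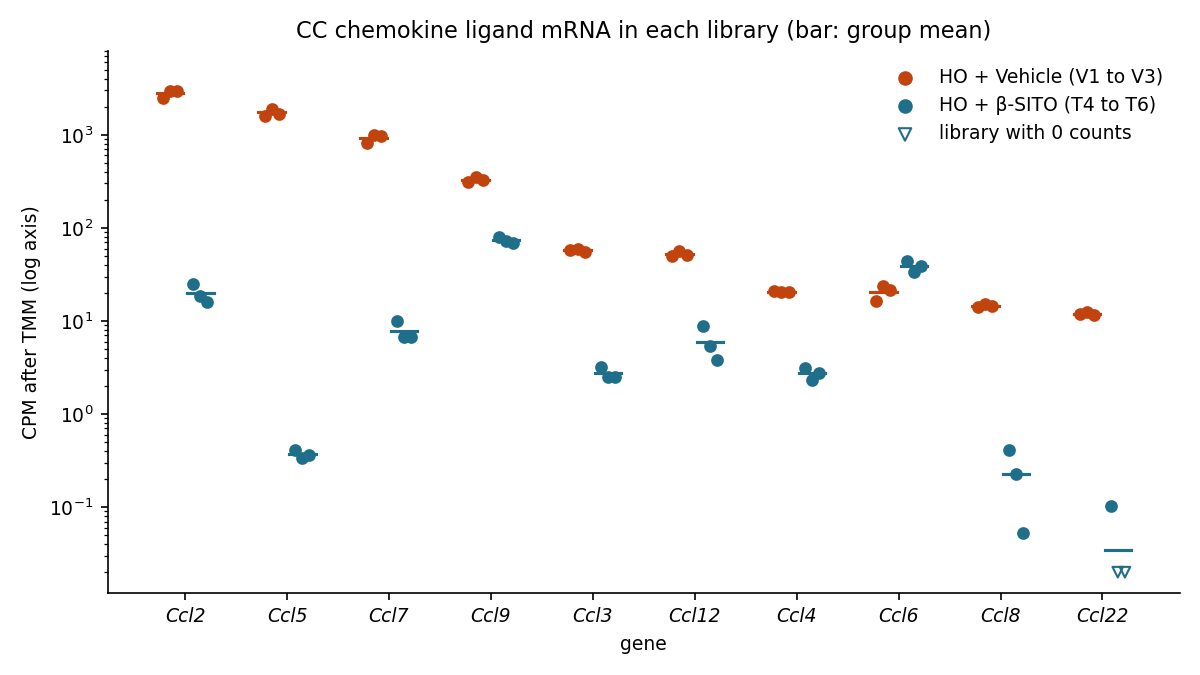
CPM of each ligand on a log axis, 1 point per library, HO + Vehicle left and HO + β-SITO right of each gene name, with a bar at the group mean and open triangles for libraries with 0 counts. For 9 ligands all HO + β-SITO points lie below the HO + Vehicle points, and for Ccl6 they lie above.

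Among the ligands of CCR2, the receptor that draws monocytes out of the blood, Ccl2 encodes the main monocyte chemoattractant (MCP-1). Its counts were 38963, 47564 and 47924 in V1, V2 and V3 and 480, 330 and 308 in T4, T5 and T6, or 2460, 2980 and 2970 CPM against 24.7, 18.5 and 16.0 CPM. Ccl2 was the most abundant member per kilobase in the HO + Vehicle group, and every HO + β-SITO library was far below every HO + Vehicle library. The log2 fold change was -7.15 ± 0.14 (SE, adjusted p = 1.10e-15), 142-fold lower, which placed Ccl2 at rank 79 of 14799 genes from the most negative. Ccl7, which encodes MCP-3, had 808, 1000 and 965 CPM against 10.1, 6.75 and 6.77 CPM. Its log2 fold change of -6.87 ± 0.14 (SE, adjusted p = 1.08e-15), 117-fold lower, was close to that of its neighbour Ccl2. Within libraries, the ratio of Ccl2 to Ccl7 counts was 2.97 to 3.08 with vehicle and 2.37 to 2.75 with β-SITO, so the groups did not overlap although both genes fell by more than 100-fold.

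Ccl12, which encodes the mouse MCP-5 and signals through the same receptor, fell less. It had 49.3, 56.7 and 51.3 CPM in V1, V2 and V3 and 8.74, 5.45 and 3.80 CPM in T4, T5 and T6, with a log2 fold change of -3.12 ± 0.17 (SE, adjusted p = 2.62e-10). The counts of Ccl2 were 53.5 ± 4.07 times those of Ccl12 with vehicle and 3.48 ± 0.70 times with β-SITO (SD, n = 3). Ccl8, which encodes MCP-2 and in the mouse acts through CCR8, had 222, 243 and 235 counts in the HO + Vehicle libraries and 8, 4 and 1 counts in T4, T5 and T6. The HO + β-SITO counts of Ccl8 are few, and the log2 fold change of -5.94 ± 0.25 (SE, adjusted p = 1.09e-11) became -6.68 without T4, the library with most of them. Pooled over libraries, Ccl8 was 63.4-fold lower (95% exact counting interval 36.9 to 120.0), an interval that covers counting error only.

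Among the ligands that draw macrophages and activated T cells, Ccl5 encodes RANTES, which is made by many cell types after virus infection or interferon. Its counts were 25552, 30479 and 27241 in V1, V2 and V3 and 8, 6 and 7 in T4, T5 and T6. Ccl5 went from the second most abundant member per kilobase to the ninth, and its libraries did not overlap. In CPM the means were 1738 ± 154.4 and 0.371 ± 0.037 (SD, n = 3). The log2 fold change of -12.16 ± 0.13 (SE, adjusted p = 1.24e-17) was rank 3 of 14799 genes from the most negative, and the fold from pooled counts was 4670 (95% exact counting interval 3060 to 7550). The ratio of Ccl2 to Ccl5 counts was 1.52 to 1.76 with vehicle and 44.0 to 60.0 with β-SITO.

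Ccl3 and Ccl4 encode MIP-1α and MIP-1β, which macrophages release on activation. Ccl3 had 57.5, 59.7 and 55.2 CPM in V1, V2 and V3 and 3.24, 2.47 and 2.50 CPM in T4, T5 and T6. Its log2 fold change was -4.39 ± 0.10 (SE, adjusted p = 9.36e-15), 20.9-fold lower. Ccl4 had 20.8, 20.6 and 20.6 CPM against 3.13, 2.30 and 2.76 CPM, with a log2 fold change of -2.91 ± 0.12 (SE, adjusted p = 8.27e-12), 7.52-fold lower. The pair did not fall in step. Counts of Ccl3 were 2.68 to 2.90 times those of Ccl4 with vehicle and 0.906 to 1.07 times with β-SITO.

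Ccl9 and Ccl6 encode MIP-1γ and C10, ligands of CCR1 that are found in mice and are made by resting as well as stimulated myeloid cells. Ccl9 had 309, 349 and 329 CPM in V1, V2 and V3 and 80.6, 71.9 and 69.6 CPM in T4, T5 and T6. It fell by 2.15 ± 0.07 on the log2 scale (SE, adjusted p = 4.72e-13), 4.44-fold lower, the smallest decrease among the 9 ligands called lower. Ccl6 was the exception in direction. It had 262, 380 and 345 counts in the HO + Vehicle libraries and 850, 593 and 747 counts in the HO + β-SITO libraries, or 16.5, 23.8 and 21.4 CPM against 43.7, 33.3 and 38.9 CPM, with no overlap (34.8% of tested genes were higher without overlap). Its log2 fold change of 0.91 ± 0.12 (SE, adjusted p = 7.51e-06), 1.88-fold higher, passed the adjusted p, as 33.0% of tested genes did in this direction, but not the 2-fold cutoff. The log2 fold change exceeded 1 with library size only (1.06) or upper quartile normalization (1.05) in place of TMM, without V2 (1.03) and without T5 (1.03), where Ccl6 was called higher. These scalings moved the median of all genes from -0.01 to 0.14, and the gain of Ccl6 under them was about as large. Within libraries, Ccl9 counts were 14.6 to 18.7 times those of Ccl6 with vehicle and 1.79 to 2.16 times with β-SITO.

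Ccl22 encodes MDC, a ligand of CCR4 that dendritic cells and macrophages make and that attracts regulatory and type 2 helper T cells. It had 190, 198 and 186 counts in V1, V2 and V3, and 2, 0 and 0 counts in T4, T5 and T6. With 2 counts in the whole HO + β-SITO group the fold is imprecise. Pooled counts gave 338-fold lower (95% exact counting interval 93.2 to 2800) and the fit a log2 fold change of -8.14 ± 0.34 (SE, adjusted p = 8.18e-12). Without T4, which held both counts, Ccl22 was at least 73.8-fold lower, taking 3 counts per library as the floor, and the fit gave -10.67.

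**Figure D2:**
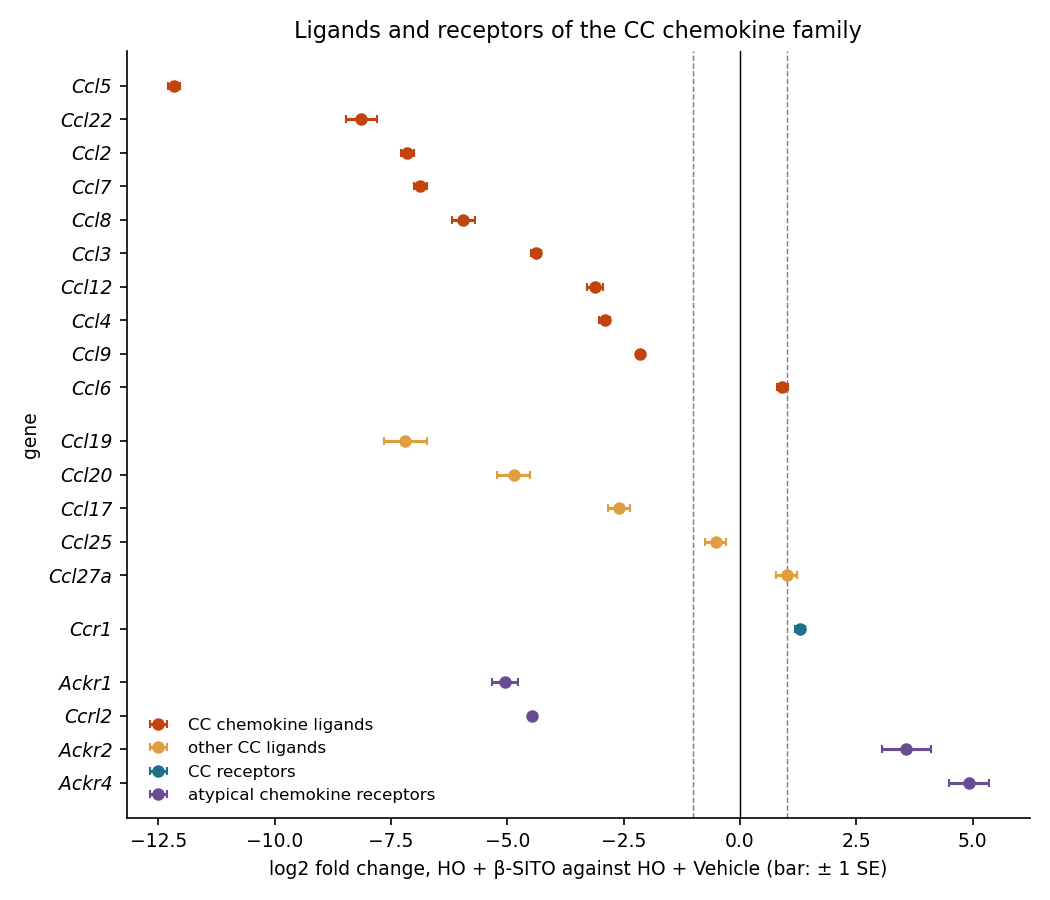
Log2 fold change, HO + β-SITO against HO + Vehicle, with bars of 1 SE on either side, for the 10 ligands, the other tested CC ligands, the receptor Ccr1 and the 4 listed atypical receptors, with dashed lines at the 2-fold cutoff. The 10 ligands run from -12.16 (Ccl5) to 0.91 (Ccl6), while Ccr1 lies at 1.29.

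The make-up of the family changed along with its level. Ccl2 held 45.9%, 46.3% and 48.5% of the counts of the 10 ligands in V1, V2 and V3 and 14.1%, 13.1% and 11.4% in T4, T5 and T6. Ccl5 went from 29.1% ± 1.37 to 0.244% ± 0.013 and Ccl7 from 15.5% ± 0.36 to 5.12% ± 0.57 (SD, n = 3). In the other direction, Ccl9 went from 5.52% ± 0.21 to 48.8% ± 2.49 and Ccl6 from 0.343% ± 0.031 to 25.4% ± 2.05 (SD, n = 3). Ccl2, Ccl5 and Ccl7 were therefore the main ligands by counts with vehicle, and Ccl9 and Ccl6 with β-SITO, although Ccl9 itself fell. For every one of the 10 shares the exact permutation test gave p = 0.1. Shares add to 100%, so the rise of one share follows in part from the fall of others. The share of Ccl8, 0.237% to 0.262% against 0.037% to 0.235%, differed little between V2 (0.237%) and T4 (0.235%), and per kilobase its shares overlapped (exact permutation test, p = 0.9).

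**Figure D3:**
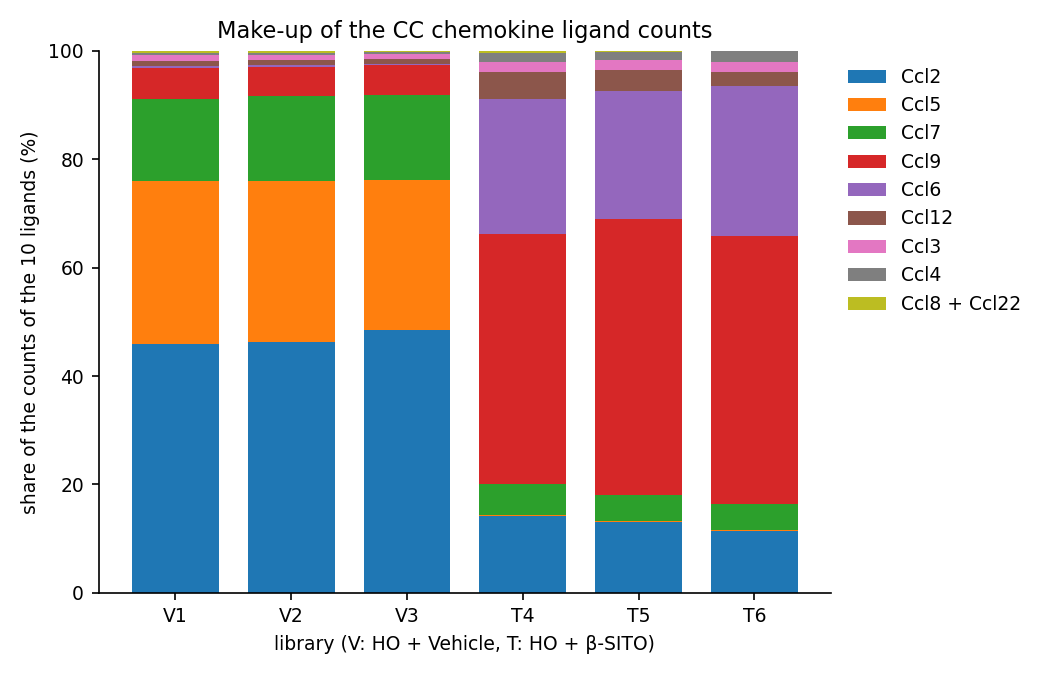
Stacked bars of the share of the summed counts of the 10 ligands that each ligand held, in percent, 1 bar per library. Ccl2, Ccl5 and Ccl7 fill most of the V1 to V3 bars, and Ccl9 with Ccl6 most of the T4 to T6 bars.

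Divided by exon length, the order of levels in the HO + Vehicle group was Ccl2 (2460 ± 261 CPM per kilobase), Ccl5 (1810 ± 161), Ccl7 (1160 ± 129), Ccl9 (108 ± 6.55), Ccl12 (97.6 ± 7.13), Ccl3 (75 ± 2.91), Ccl4 (31.3 ± 0.24), Ccl8 (28.6 ± 1.19), Ccl6 (11.5 ± 2.06) and Ccl22 (5.15 ± 0.19; SD, n = 3). Neighbours in this order did not overlap between libraries except Ccl9 and Ccl12. In the HO + β-SITO group the order was Ccl9 (24.3 ± 1.90 CPM per kilobase), Ccl6 (21.5 ± 2.89), Ccl2 (17.4 ± 3.90), Ccl12 (11.2 ± 4.68), Ccl7 (9.84 ± 2.43), Ccl4 (4.14 ± 0.63), Ccl3 (3.57 ± 0.57), Ccl8 (0.449 ± 0.351), Ccl5 (0.386 ± 0.039) and Ccl22 (0.0147 ± 0.0255; SD, n = 3). There Ccl9, Ccl6, Ccl2, Ccl12 and Ccl7 formed a run in which each overlapped with its neighbour. Ccl4 overlapped with Ccl3 and Ccl8 with Ccl5, so the order within these runs is not resolved. Ccl7 did not overlap with Ccl4.

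**Figure D4:**
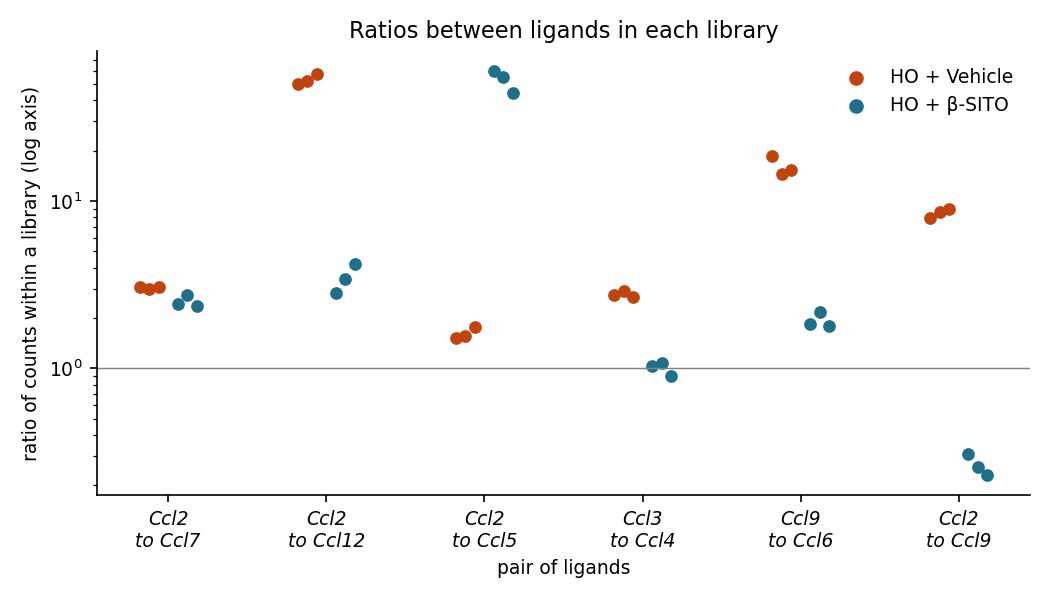
Ratio of the counts of 2 ligands within each library on a log axis, for 6 pairs, HO + Vehicle left and HO + β-SITO right. No pair overlaps between groups, and the ratio of Ccl2 to Ccl9 passes from 7.97 to 9.02 to below 1 (0.230 to 0.306).

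Ratios within a library do not depend on normalization, and they differed between groups without overlap in all 6 pairs computed (exact permutation test, two-sided, p = 0.1 for each, also after Benjamini-Hochberg adjustment). The 6 pairs are a selection, and their ratios restate the differences between the fold changes given above. Spread within a group was shared across members. T4 had the highest CPM of its group for 10 of the 10 ligands, and V1 had the lowest of its group for 7 of 10 (all but Ccl3, Ccl4 and Ccl22). T4 also had the highest summed level of 15 macrophage markers, 3625 CPM, against 2972 in T5 and 2950 in T6. The part of this in the spread was not tested. Without T4, 9 ligands were still called lower, as in each of the other fits that left out 1 library.

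In the deposited table, whose coordinates are on GRCm39 per the submitters' processing notes, 9 of the 10 ligands lie on chromosome 11 in a pair of blocks, and Ccl22 on chromosome 8 from 95472218 to 95478327. The first block runs for 81.2 kb, from the start of Ccl2 at 81926397 to the end of Ccl8 at 82007625, with Ccl7 and Ccl12 between them. The second runs for 139 kb, from Ccl5 at 83416604 to the end of Ccl4 at 83555509, with Ccl9, Ccl6 and Ccl3 between them. Fold changes were not uniform within a block. In the first block Ccl12 (-3.12) lay between Ccl7 (-6.87) and Ccl8 (-5.94), and in the second, Ccl9 (-2.15) and Ccl6 (0.91), 9.24 kb apart, followed Ccl5 (-12.16). Between the blocks lie 1410 kb with 25 tested genes, of which 13 (52.0%) were called lower and 1 higher, against 10.1% and 12.8% of all genes.

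**Figure D5:**
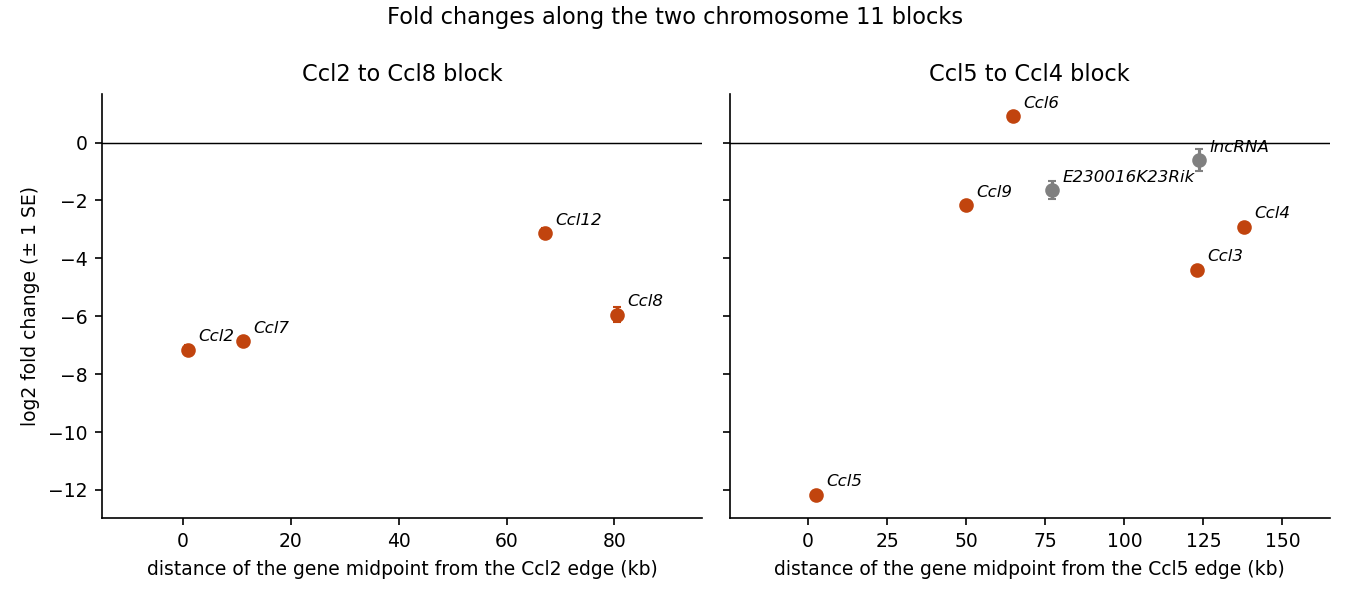
Log2 fold change (bars, 1 SE) of the tested genes in each chromosome 11 block against the distance of the gene's midpoint from the edge of the block in kb, ligands in colour and noncoding genes in grey. Adjacent ligands differ in size, and in the second block Ccl6 lies above 0 where its neighbours lie below.

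No pair of the 10 ligands shared a stretch of 50 bases in any GENCODE vM21 transcript, and the longest shared run was 25 bases, between Ccl6 and Ccl9. Opposite-strand noncoding genes overlap Ccl6 (E230016K23Rik) and Ccl3 (ENSMUSG00000120024), and since the strand setting of the counting is not stated, reads where they overlap cannot be told apart. Their counts were small, 23 to 29 against 8 to 12 for E230016K23Rik and 8 to 15 against 7 to 11 for ENSMUSG00000120024. Gm17268, which overlaps Ccl2 on the opposite strand, had 0 counts in all 6 libraries.

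Of the other 14 mouse CC ligands, 5 had enough counts to be tested, and their summed level was small (18.9 to 23.4 CPM with vehicle and 5.91 to 6.51 CPM with β-SITO). Called lower were 3, where 10.1% of all tested genes were. They were Ccl19, a ligand of CCR7, Ccl20, the ligand of CCR6, and Ccl17, which shares CCR4 with Ccl22. Ccl19 and Ccl20 had enough counts to be tested only through the HO + Vehicle group. Ccl17 lies 58.8 kb from Ccl22 and had 82, 111 and 82 counts in V1, V2 and V3 and 14, 23 and 16 in T4, T5 and T6 (log2 fold change -2.60 ± 0.24, SE, adjusted p = 1.28e-07). Ccl19 went from 82, 125 and 92 counts to 0, 0 and 2 (176-fold lower from pooled counts, 95% exact counting interval 48.3 to 1460), and Ccl20 from 68, 50 and 65 to 4, 1 and 2 (log2 fold change -4.87 ± 0.36, SE, adjusted p = 9.88e-09). Ccl27a, a skin chemokine, was at the cutoff with a log2 fold change of 1.001 ± 0.227 (SE, adjusted p = 0.00115) and was called higher. Ccl25, the thymic ligand of CCR9, had -0.52 ± 0.23 (SE, adjusted p = 0.0560). Among those not tested, Ccl11 (eotaxin) had 10, 6 and 7 counts against 0 in each HO + β-SITO library, and 7 ligands had at most 3 counts in every library.

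Among the CC receptors, Ccr1 was called higher. Ccr1, which binds Ccl3, Ccl5, Ccl6, Ccl7 and Ccl9, had 173, 167 and 144 counts in V1, V2 and V3 and 529, 453 and 415 in T4, T5 and T6, with a log2 fold change of 1.29 ± 0.11 (SE, adjusted p = 4.84e-08). Ccr2, the receptor of Ccl2, Ccl7 and Ccl12, had 2, 2 and 3 counts against 9, 7 and 6 and was too low to be tested. Ccr4, the receptor of Ccl22, had 1, 2 and 1 counts against 0 in each HO + β-SITO library. Ccr8, the receptor of Ccl8, had 0 counts in all libraries, which allows up to 3 counts, or 0.154 to 0.189 CPM, in each.

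Atypical receptors bind chemokines without G protein signaling. The list used here held only 4, Ackr1, Ackr2, Ackr4 and Ccrl2. All 4 were called, 2 in each direction, where 22.8% of all tested genes were called in either direction. Ackr2 and Ackr4 had enough counts to be tested only through the HO + β-SITO group, and Ackr1 only through the HO + Vehicle group. Their calls follow in part from that. Ackr1, which carries chemokines across venular endothelium, went from 150, 143 and 141 counts to 6, 8 and 1 (log2 fold change -5.05 ± 0.28, SE, adjusted p = 3.51e-10), and Ccrl2, which binds chemerin, from 165 ± 5.41 to 7.49 ± 0.21 CPM (SD, n = 3). Ackr2, which scavenges inflammatory CC chemokines including Ccl2, Ccl3 and Ccl5, was higher, with 1, 1 and 4 counts in V1, V2 and V3 and 18, 37 and 33 in T4, T5 and T6. Ackr4, which scavenges Ccl19 and Ccl25, had 0, 3 and 3 against 92, 55 and 80 counts. From pooled counts Ackr2 was 12.4-fold higher (95% exact counting interval 5.50 to 34.8) and Ackr4 32.1-fold higher (14.5 to 88.4).

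Over all tested genes, 10.1% were called lower and 12.8% higher, the shares to set beside the counts in this paragraph. Of 11 genes for NF-κB subunits and inhibitors, 10 were called lower (all but Rela, -0.82) and none higher. The median log2 fold change was -2.52, and the lower genes included the feedback inhibitors Tnfaip3 (-4.36) and Nfkbie (-4.07). Of 13 STAT and IRF factors, which carry interferon signals, 6 were called lower and none higher (median -0.86), and Irf7 (-6.85) had the lowest value, with Irf1 (-3.51) also lower. AP-1 and C/EBP factors went both ways, with 5 of 12 lower and 3 higher (median -0.88). Batf (-2.28) and Fosl1 (-2.44) fell, and Cebpa (3.28), a factor of myeloid differentiation, rose. Fosl1 had enough counts to be tested only through the HO + Vehicle group, and Fosb, called higher, only through the HO + β-SITO group. The calls of Fosl1 and Fosb follow in part from that. Of 10 factors that bind or degrade cytokine mRNA, 2 were lower, Zc3h12a (-3.10), which encodes the ribonuclease Regnase-1, and Zc3h12c (-1.43), and none was higher (median -0.25). Zfp36, which encodes the mRNA-destabilizing protein tristetraprolin, had a log2 fold change of -0.46. Of 15 genes for signaling below chemokine receptors, 2 were lower, Jak2 (-3.47) and Pik3r5 (-1.13). Higher were 2, Dock2 (1.79), a regulator of leukocyte migration, and Arrb1 (1.47), an arrestin. The median of these 15 was -0.06, and both counts are near the shares of all tested genes.

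Markers of cells that can make these ligands moved as well, where 12.8% of all tested genes were called higher and 10.1% lower. In bulk RNA, fewer cells of a type and less RNA per cell cannot be told apart. Of 15 macrophage markers, 9 were called higher and 2 lower (median log2 fold change 1.16), and their sum was 1433 to 1569 CPM with vehicle and 2950 to 3625 CPM with β-SITO, so it was higher where the ligands were lower, and none was at 0. Higher were the scavenger receptor gene Mrc1 (4.79) and Csf1r (1.54), and lower were Fcgr1 (-2.18) and Cd14 (-1.56). All 7 endothelial markers were higher (188 to 216 CPM against 744 to 785 CPM). Of 8 fibroblast markers none was called, and of 10 cardiomyocyte markers 4 were higher and none lower. Neutrophil markers summed to 21.3 to 22.7 CPM against 4.95 to 7.86 CPM, with Ly6g and Retnlg at 0. Most of the sum was Csf3r (log2 fold change -2.08) and Mmp8 (-1.87), both called lower. S100a8 (mean 0.397 against 0.401 CPM) and S100a9 (0.375 against 0.453 CPM) were too low to be tested and did not fall. T and NK cell markers (4.55 to 5.96 CPM against 3.65 to 4.11 CPM) went both ways, with Cd3d, Cd3e, Cd3g and Ncr1 at 0. Lck, most of the sum with vehicle, was called lower (mean 4.90 against 1.39 CPM). Cd4 was called higher (mean 0.397 against 1.95 CPM), but had enough counts to be tested only through the HO + β-SITO group. Dendritic cell markers (15.2 to 17.2 CPM against 19.5 to 21.6 CPM) had Cd209a and Siglech at 0. Mast cell markers summed to 4.89 to 6.76 CPM with vehicle and 22.9 to 25.0 CPM with β-SITO, nearly all of it Mcpt4 (log2 fold change 2.07), with Tpsb2, Fcer1a and Ms4a2 at 0. The part of these cell types in the ligand levels was not tested.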

How the data were processed

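RNA-seq counts of 6 NMCM libraries (3 HO + Vehicle, 3 HO + β-SITO, grouped by sample title) were used. The authors deposited raw counts per gene, made with HISAT2 and featureCounts on GRCm39 per the submitters' processing notes; versions, options and annotation release are not given in the sources used here. The study names an ABclonal library kit and the sample records an Illumina kit.

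From the deposited counts, genes were filtered with filterByExpr and scaled by TMM, and the groups were compared with edgeR 4.0.16 (R 4.3.3, quasi-likelihood test, Benjamini-Hochberg adjustment over all tested genes, group as the only term). The study's threshold was kept, although it names DESeq2. The SE is the log2 fold change divided by the square root of the F statistic. The common biological coefficient of variation was 6.52%. Counting intervals are exact (Clopper-Pearson, 95%) on pooled counts over effective library sizes. Exact permutation tests used scipy 1.17.1. Exon lengths are from GENCODE vM21, matched by gene identifier. The scripts were tested on simulated data. Alternatives were DESeq2 1.42.0, limma-voom (limma 3.58.1), glmTreat, no fold cutoff, other normalizations, other filters and each library left out.

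The 10 ligands, the gene lists and the motifs were chosen with earlier results of these data known. Named genes are all 10 ligands, tested CC ligands and receptors, and in other lists the called genes with the largest changes or the most abundant genes. Named after their values were seen were the overlapping noncoding genes, untested receptors and ligands, Rela, Zfp36, Pik3r5, Csf1r, Cd14, Mmp2, Dpp4, S100a8, S100a9 and markers at 0. So were Fosb and the fibroblast markers. Some genes of these lists are not reported here.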

Additional observations from a re-analysis of the deposited data

How the results depend on the processing

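Of the 10 ligands, 9 were called lower under every alternative except the filter of at least 10 counts in every library, where 6 were called and Ccl5, Ccl8 and Ccl22 were not tested. The count called higher, 0, became 1 (Ccl6) with no fold-change cutoff, with upper quartile normalization and with library size only, and was 0 to 1 with each library left out. Without the fold cutoff, 5007 of all genes were lower and 4885 higher, against 1492 and 1888 with it. With at least 10 counts in every library, 1 of the other CC ligands was called lower instead of 3, since fewer were tested. The share of Ccl2 among the ligand counts was lower by 34.0 percentage points (-34.04) with β-SITO and, per kilobase, by 23.9 points (-23.93). The log2 ratio of the summed CPM was -5.41 to -5.24 with each library left out. No paired analysis was possible because the groups share no replicate numbers. The few counts of Ccl5, Ccl8 and Ccl22 with β-SITO limit the precision of their folds.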

Other observations

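Chemokines act while bound to glycosaminoglycans and are trimmed by peptidases. Over all tested genes, 10.1% were called lower and 12.8% higher. Of 11 genes for glycosaminoglycan core proteins and enzymes, 2 were called lower and none higher (median log2 fold change -0.17). They were Sdc4 (-1.58), a membrane proteoglycan that fell from 574 to 192 CPM, and Hpse (-1.53), which encodes heparanase. Of 11 peptidases that cut chemokines, 8 were tested and 2 were called lower, the metalloproteinase genes Mmp3 (-4.19, from 1830 to 101 CPM) and Mmp9 (-2.65), with none higher (median 0.08). Mmp2, whose product trims Ccl7, had 0.88, and Dpp4, whose product trims several CC ligands at the N-terminus, had 0.75, both under the 2-fold cutoff.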
